A study of Mus musculus with 6 samples.

Results

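Solute carriers are membrane proteins that move amino acids, sugars, ions, metals, vitamins and metabolites across the cell surface and across the membranes of mitochondria, the Golgi and vesicles. The genes described here were every gene of the hippocampal table whose symbol starts with Slc and a digit, apart from Slc1a2, Slc1a3, Slc4a4 and Slc2a1, which were left out. This gave 55 genes of the 2404 in the table. RNA was sequenced from the hippocampus of 3 CORT mice and 3 vehicle mice. The CORT group consisted of adult male C57BL/6 mice given corticosterone, the main glucocorticoid of rodents, at 40 mg/kg by subcutaneous injection each day for 36 days, starting at 7 to 8 weeks of age. The vehicle group had the same sex, strain and age and received the carrier solution on the same schedule. Injections of a hormone reach the whole body, so the treatment was not limited to the hippocampus. GEO's treatment label for the CORT samples reads cortisone, whereas the study names corticosterone. The control columns of the table are headed as wild type and are treated here as vehicle, the only control of the series. Replicate numbers follow the column headings and are not tied to particular mice.

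The table lists the genes that the authors had called different between the groups, and all 2404 carry a deposited p-value under 0.05. A difference in any gene below was therefore already selected on these same 6 libraries, and a low p is no independent evidence of a change. Solute carrier genes outside the table were not analysed here. Values are TPM, a level of transcripts scaled for gene length and for the library's total. Groups were compared by limma on log2(TPM + 1) over the 2241 genes of the table that reached 1 TPM in 3 or more libraries, with p-values adjusted over those genes. Log2 fold changes below are on that scale, on which the change of a gene with few TPM appears smaller than it was. With 3 libraries against 3, an exact permutation test of a single gene cannot give a two-sided p below 0.1, and every gene whose groups did not overlap had that p. Since TPM does not retain read counts, the sequencing depth is unknown.

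Vehicle replicate 1 and CORT replicate 3 each had the highest TPM of some solute carriers and of markers of tissues that adjoin the hippocampus. The solute carriers were picked after their values were seen, and a part of such tissue in their levels was not tested. Vehicle replicate 1 had the highest TPM of Slc6a13, Slc6a20a, Slc16a3, Slc22a8 and Slc47a1, and of the collagen gene Col1a1, the 1 gene of 8 meninges markers that the table holds. CORT replicate 3 had the highest TPM of Slc24a5 and Slc16a8, and of the choroid plexus markers Folr1 and Prlr, the 2 genes of 9 such markers in the table. None of 9 neuron markers was in the table, so the tissue label could not be checked against them. In whole tissue, fewer cells of a type and less RNA per cell cannot be told apart.

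**Figure D1:**
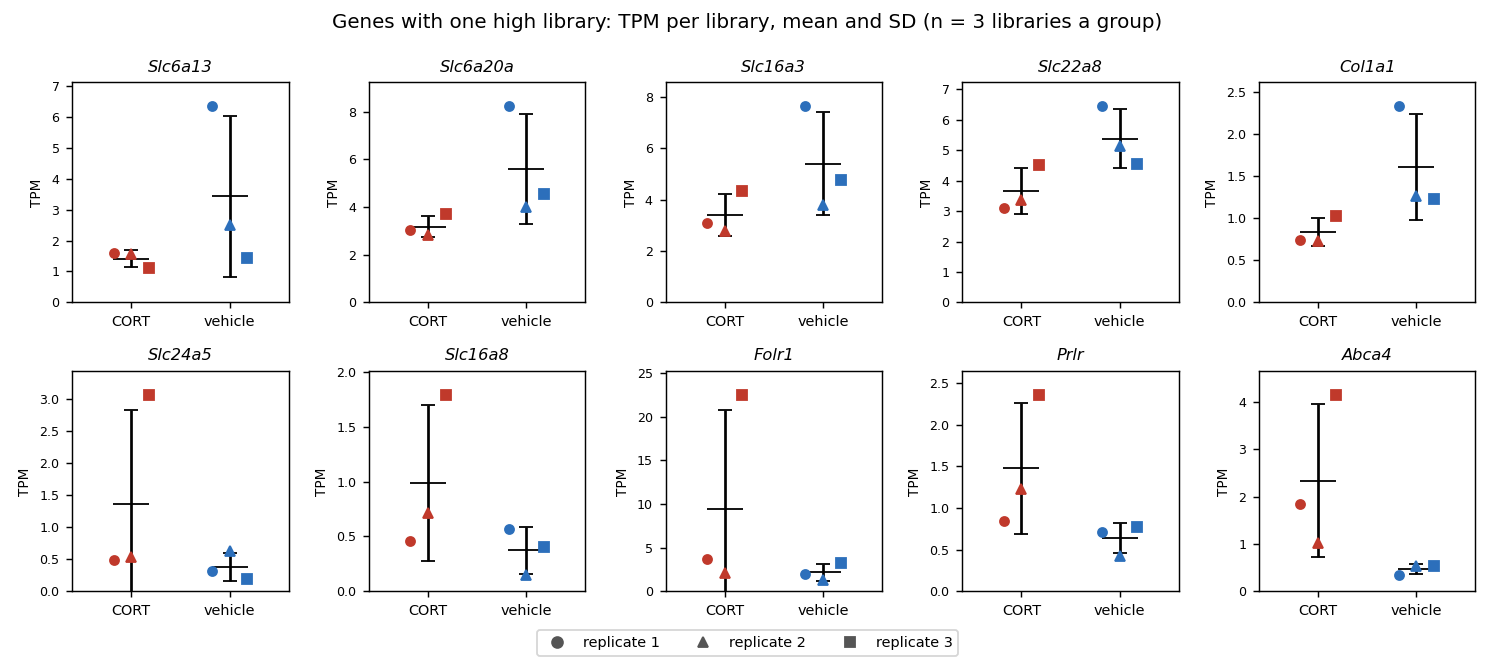
TPM (y axis, from 0) in each CORT library (red) and each vehicle library (blue) for genes highest in vehicle replicate 1 or CORT replicate 3. Marks give the replicate number and bars the mean and SD of 3 libraries. Vehicle replicate 1 is the highest library for Slc6a13, Slc6a20a, Slc16a3, Slc22a8 and Col1a1, and CORT replicate 3 is the highest for Slc24a5, Slc16a8, Folr1, Prlr and Abca4.

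Of the 55 solute carrier genes, 51 passed the filter on low values and 4 (Slc10a6, Slc16a8, Slc24a5 and Slc47a1) did not. Among the 51, 15 were higher and 11 were lower in the CORT group by limma with an adjusted p under 0.05, and 25 missed it. Over all genes tested, 50.6% were called, 25.8% as higher and 24.7% as lower, and among the solute carrier genes the shares were 50.98%, 29.4% and 21.6%. The groups did not overlap for 37 of the 51 genes (72.5%), against 69.8% of all genes tested. In 19 of these the CORT libraries were higher (35.4% of all genes tested) and in 18 they were lower (34.4% of all genes). The fold change was positive for 24 of the 51 genes and for 50.4% of all genes tested. These shares were all near those of the table as a whole. Quantile normalization turned the balance, with 9 solute carriers higher and 14 lower. It was computed over the tested genes alone, all of which the authors had already called different. Without CORT replicate 1 only 6 were higher, and without vehicle replicate 1 or CORT replicate 3 only 5 were lower. Of the 25 that did not pass, 11 did so in 1 of the 6 fits with a library left out, namely Slc12a2, Slc24a2, Slc26a2, Slc43a3, Slc6a13 and Slc8a1 without vehicle replicate 3, Slc16a3, Slc4a3 and Slc6a9 without vehicle replicate 2, and Slc15a3 and Slc6a6 without CORT replicate 1. The median log2 fold change was -0.09 over the 51 genes and 0.05 over all genes tested. Changes were modest, with log2 fold changes between -0.72 and 1.27. Of the genes called, 6 of those higher and 3 of those lower differed by at least 1.5-fold in mean TPM. Mitochondrial carriers and members of the Slc35 family were mostly higher, although the nucleotide sugar carrier Slc35b4 of that family did not pass. Both phosphate transporters and both scaffold proteins named for a sodium-proton exchanger were lower. The other classes held members on both sides or too few to describe as a group.

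**Figure D2:**
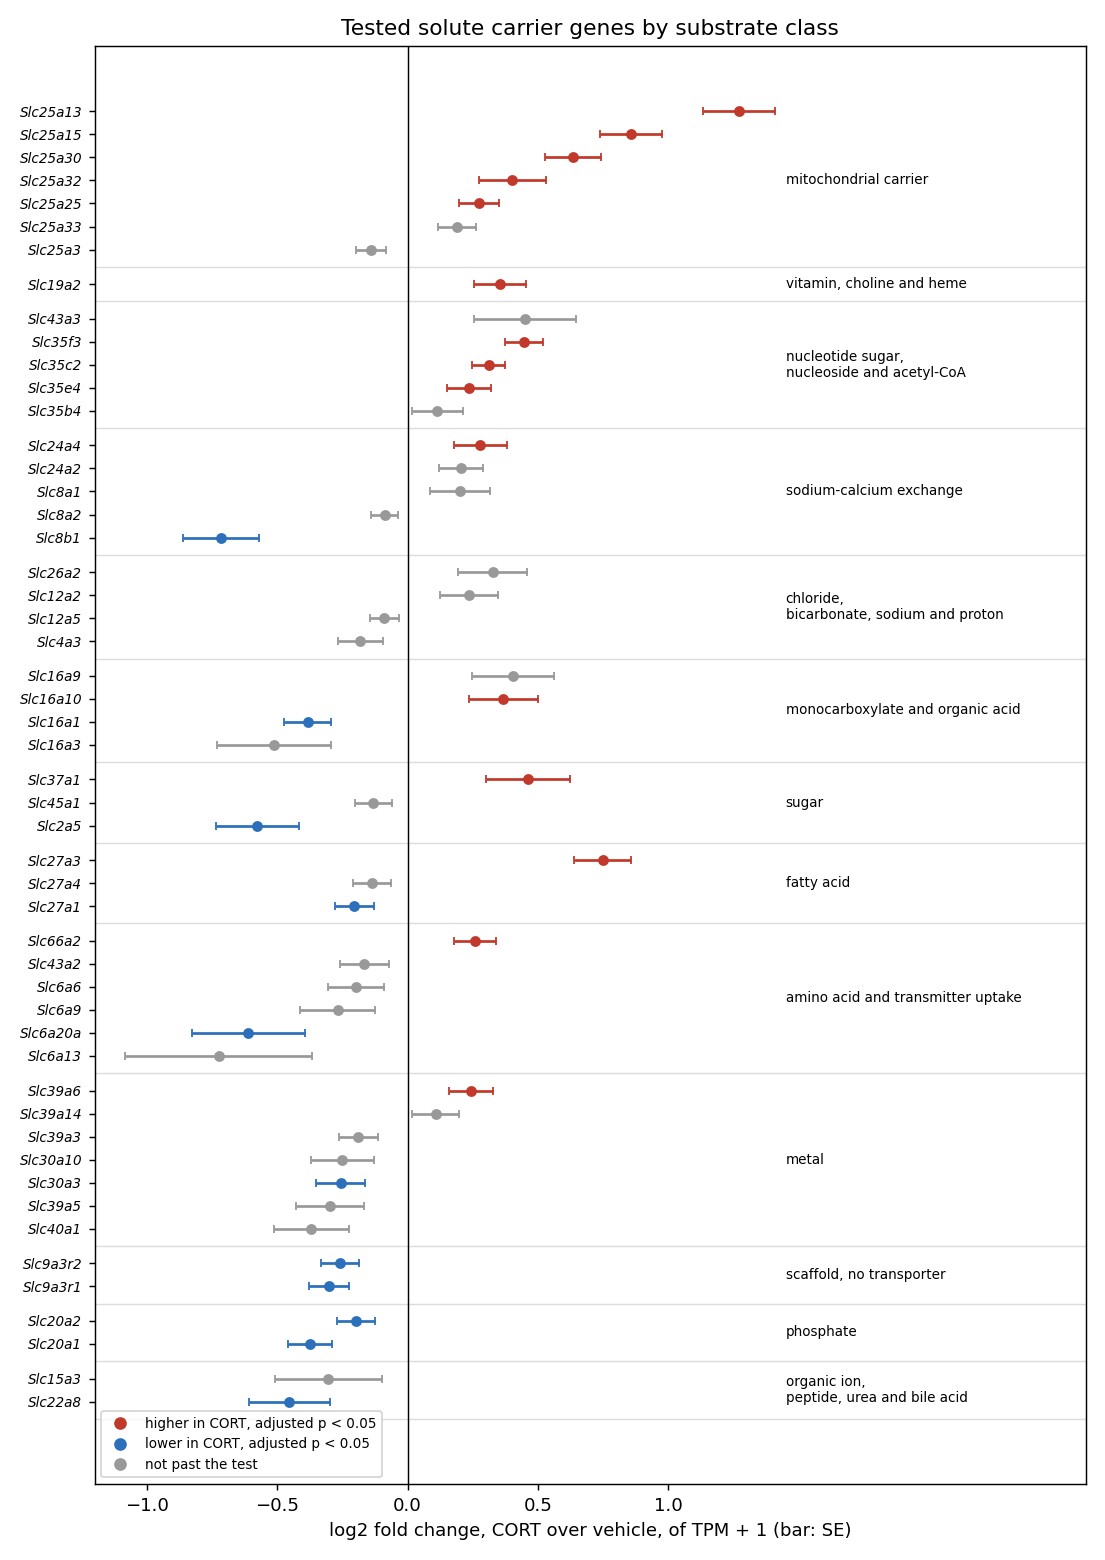
Log2 fold change of TPM + 1 in CORT over vehicle (x axis) for each of the 51 tested solute carrier genes, grouped by substrate class, with bars for the SE from limma. Red genes were higher and blue genes lower at an adjusted p under 0.05, grey genes did not pass, and the fold changes run from -0.72 for Slc6a13, which did not pass, to 1.27 for Slc25a13.

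Mitochondrial carriers of the Slc25 family shuttle metabolites and nucleotides across the inner mitochondrial membrane. All 7 in the table were tested, of which 5 were higher, none was lower, and 2 did not pass, with a median log2 fold change of 0.40. Over all genes tested 25.8% were higher, with a median of 0.05. Without CORT replicate 1 the number of these carriers higher was 3. The groups did not overlap for any of the 7, nor for 69.8% of all genes tested. Slc25a13 (ENSMUSG00000015112) encodes citrin, an exchanger of aspartate and glutamate that supports the transfer of reducing equivalents into mitochondria. It had 4.43, 4.73 and 3.94 TPM in the CORT libraries, against 0.94, 1.46 and 1.29 TPM in the vehicle libraries. Its mean TPM was 4.37 ± 0.399 in the CORT group and 1.23 ± 0.265 in the vehicle group (SD, n = 3 each), a ratio of 3.55. The log2 fold change of Slc25a13 was 1.27 (SE 0.14, limma adjusted p = 0.000378), the largest among the tested solute carriers, and it was 1.76 with a pseudocount of 0.1. Slc25a15, the ornithine carrier that links the mitochondrial and cytosolic steps of the urea cycle in liver, had 10.13, 8.62 and 8.5 TPM in CORT libraries, against 4.13, 4.39 and 5.21 TPM in vehicle libraries. The lowest CORT library exceeded the highest vehicle library, and the mean TPM ratio was 1.98. Its log2 fold change was 0.86 (SE 0.12, limma adjusted p = 0.00113). Slc25a30, a carrier first described in kidney, had 8.52, 8.04 and 7.65 TPM in the CORT group and 5.11, 4.34 and 5.12 TPM in the vehicle group (log2 fold change 0.63, SE 0.11, limma adjusted p = 0.00278). These 3 calls held when any single library was left out.

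The remaining carriers of this family moved less. Slc25a32, which carries folate and FAD into mitochondria, had 5.83, 4.61 and 5.91 TPM in the CORT libraries, against 3.42, 4.27 and 3.93 TPM in the vehicle libraries (log2 fold change 0.40, SE 0.13, limma adjusted p = 0.0332). Slc25a25, a calcium-regulated exchanger of ATP-Mg for phosphate, had 46.33, 47.93 and 44.61 TPM in CORT, against 41.53, 35.72 and 37.36 TPM in vehicle libraries (log2 fold change 0.27, SE 0.08, limma adjusted p = 0.0221). The groups of both genes lay close together, and their calls were less firm than the 3 above. Slc25a32 lost its call without CORT replicates 1 and 3 and without vehicle replicate 1 (adjusted p of 0.0927, 0.0949 and 0.0928), and Slc25a25 without CORT replicates 1 and 2 and without vehicle replicate 2 (0.053, 0.0752 and 0.0575). Both also lost it after a correction for transcript GC content, with adjusted p-values of 0.225 and 0.072, and Slc25a32 with quantile normalization (0.059). Slc25a33, a pyrimidine nucleotide carrier, had 38.2, 38.92 and 43.1 TPM in CORT libraries, against 35.3, 34.27 and 35.44 TPM in vehicle libraries, and did not pass (adjusted p = 0.0555), although it did after the GC correction (0.0348). Slc25a3, the phosphate carrier that feeds ATP synthesis, was the most abundant solute carrier RNA described here by TPM. It had 492.11, 542.88 and 559.23 TPM in CORT libraries, against 609.43, 570.58 and 576.97 TPM in vehicle libraries (log2 fold change -0.14, SE 0.06, limma adjusted p = 0.0627). After the GC correction Slc25a3 was lower (log2 fold change -0.32, adjusted p = 0.0155), whereas quantile normalization left it with an adjusted p of 0.892.

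The window around the start of Slc25a13 is shown as that of the tested solute carrier with the largest change. It holds 250 bases before the start and 50 after it, from RefSeq on GRCm38.p6, an earlier build than the authors' GRCm39. It lies at chr6:6217124-6217423 on the minus strand and has a GC content of 65.0%. Neither of the glucocorticoid response motifs searched, GNACA followed by any 3 bases and TGTNC, and its shorter relative AGAACA or TGTTCT, is in it on either strand, so no base is in capitals.
Slc25a13: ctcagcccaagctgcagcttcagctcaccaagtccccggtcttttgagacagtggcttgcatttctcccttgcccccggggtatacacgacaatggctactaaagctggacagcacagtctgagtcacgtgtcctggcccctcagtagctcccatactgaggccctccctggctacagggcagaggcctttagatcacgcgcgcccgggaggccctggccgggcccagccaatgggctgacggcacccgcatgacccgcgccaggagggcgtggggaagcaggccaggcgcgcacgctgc

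**Figure D3:**
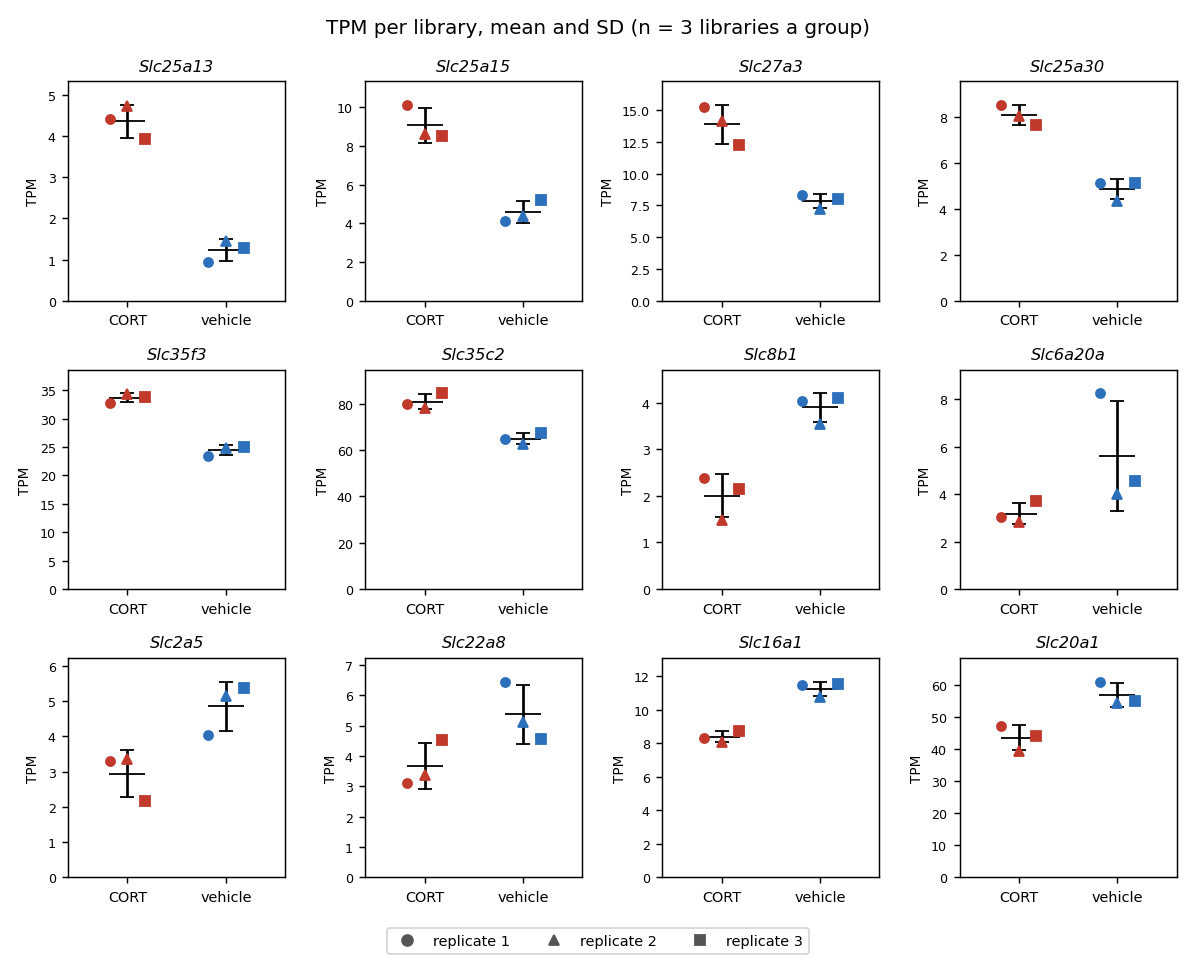
TPM (y axis, from 0) in each CORT library (red) and vehicle library (blue) for 6 solute carrier genes that were higher and 6 that were lower in the CORT group, with marks for replicate number and bars for the mean and SD of 3 libraries. The CORT and vehicle libraries do not overlap for any of the 12 genes, and for Slc6a20a vehicle replicate 1, at 8.25 TPM, lies far above the other vehicle libraries.

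The fatty acid transport proteins of the Slc27 family activate long-chain fatty acids with coenzyme A and help their uptake. Their 3 members in the table went in different directions. Slc27a3 had 15.26, 14.12 and 12.24 TPM in CORT libraries, against 8.32, 7.21 and 7.97 TPM in vehicle libraries. The lowest CORT library was well above the highest vehicle library, with a log2 fold change of 0.75 (SE 0.11, limma adjusted p = 0.00142), and the call held without any single library and after the GC correction. Slc27a1 was lower, with 54.28, 57.38 and 58.24 TPM in CORT libraries, against 65.75, 60.17 and 70.57 TPM in vehicle libraries (log2 fold change -0.20, SE 0.07, limma adjusted p = 0.0472). That call was lost in all fits with a library left out except the one without vehicle replicate 2, with adjusted p-values of up to 0.127, after the GC correction (0.153) and with plain eBayes (0.0685). Slc27a4 averaged 53.7 ± 0.929 TPM in the CORT group and 59.2 ± 4.60 TPM in the vehicle group and did not pass (adjusted p = 0.113).

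The Slc35 family imports nucleotide sugars into the Golgi and endoplasmic reticulum, where they build glycans, and includes relatives with no settled substrate. All 4 members in the table had positive fold changes and 3 were higher, against 50.4% and 25.8% of all genes tested. Slc35f3, a relative that has been linked to thiamine, had 32.76, 34.36 and 33.85 TPM in CORT libraries, against 23.43, 24.87 and 25.02 TPM in vehicle libraries. Both groups were tight, and the log2 fold change was 0.45 (SE 0.07, limma adjusted p = 0.00218). Slc35c2, a Golgi protein that affects the fucosylation of Notch, had 79.9, 78.17 and 84.61 TPM in CORT libraries, against 64.93, 62.84 and 67.23 TPM in vehicle libraries (log2 fold change 0.31, SE 0.06, limma adjusted p = 0.00638). Both calls held without any single library and after the GC correction. Slc35e4 averaged 22.7 ± 1.19 TPM in CORT and 19.1 ± 1.19 TPM in vehicle libraries (adjusted p = 0.0449), and in no fit with a library left out did it pass, with adjusted p-values of up to 0.131. Its adjusted p was 0.00333 after the GC correction and 0.0751 with quantile normalization. Slc35b4, a carrier of UDP-xylose and UDP-N-acetylglucosamine, did not pass, at 34.3 ± 1.05 TPM in CORT and 31.8 ± 4.04 TPM in vehicle libraries. Slc43a3, a transporter of purine nucleobases, had 1.05, 1.32 and 1.24 TPM in CORT libraries, against 0.74, 0.21 and 0.99 TPM in vehicle libraries, and did not pass (adjusted p = 0.0719).

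Among the carriers of vitamins and sugars, 1 thiamine transporter and 1 sugar phosphate carrier were higher and a fructose transporter was lower. Slc19a2, a thiamine transporter of the cell surface, had 11.75, 10.63 and 10.76 TPM in CORT libraries, against 7.71, 8.47 and 9.12 TPM in vehicle libraries. The log2 fold change was 0.35 (SE 0.10, limma adjusted p = 0.0217), with calls lost without CORT replicate 1 (0.0684) and without vehicle replicate 1 (0.0616). Slc37a1, which exchanges glucose 6-phosphate for phosphate across the endoplasmic reticulum, had 4.62, 4.82 and 3.06 TPM in CORT libraries, against 2.47, 2.54 and 3.13 TPM in vehicle libraries. Its lowest CORT library thus lay below its highest vehicle library, and the log2 fold change of 0.46 (SE 0.16, adjusted p = 0.0416) passed in 2 of the 6 fits with a library left out, those without CORT replicate 3 and without vehicle replicate 3, and not with quantile normalization (0.0823).

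Slc2a5 encodes the fructose transporter GLUT5, which in the brain is known from microglia. It had 3.3, 3.36 and 2.18 TPM in the CORT libraries, against 4.05, 5.14 and 5.37 TPM in the vehicle libraries, and was lower in CORT by a log2 fold change of -0.58 (SE 0.16, limma adjusted p = 0.0205). The call was lost without CORT replicate 3 (0.0586) and without vehicle replicate 2 (0.0526). Of 10 microglia markers, 6 were in the table, none of them at 0 in any library, and 5 were lower in CORT, with C1qb not passing. Over all genes tested 24.7% were lower. The summed level of these markers was 109.5 to 139.1 TPM in CORT libraries and 176.1 to 198.2 TPM in vehicle libraries. Its part in the difference of Slc2a5 was not tested. Slc45a1, a proton-coupled sugar transporter, averaged 31.8 ± 1.24 TPM in CORT and 34.96 ± 1.11 TPM in vehicle libraries, which did not overlap but did not pass (adjusted p = 0.115).

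The Slc16 family carries lactate, pyruvate and ketone bodies as well as aromatic amino acids and thyroid hormones. Slc16a1 encodes MCT1, a lactate transporter of brain endothelium and oligodendrocytes. It had 8.33, 8.08 and 8.75 TPM in CORT libraries, against 11.48, 10.74 and 11.52 TPM in vehicle libraries. The groups lay well apart and Slc16a1 fell by 0.38 on the log2 scale (SE 0.09, limma adjusted p = 0.0123), a call that held without any single library and after the GC correction (0.00196). Bsg, the chaperone that brings MCT1 to the cell surface, had 657.82, 734.42 and 738.12 TPM in CORT libraries, against 900.47, 848.96 and 828.88 TPM in vehicle libraries, and was lower too (log2 fold change -0.28, SE 0.06, adjusted p = 0.00768). Slc16a3 encodes MCT4, a lactate exporter. It had 3.1, 2.77 and 4.32 TPM in CORT libraries, against 7.64, 3.8 and 4.76 TPM in vehicle libraries, so that the groups overlapped, and it did not pass (adjusted p = 0.0692, with 0.215 without vehicle replicate 1 and 0.0415 without vehicle replicate 2). Slc16a10, a transporter of aromatic amino acids and thyroid hormones, was higher. It had 1.34, 1.56 and 1.4 TPM in CORT libraries, against 0.96, 0.77 and 0.93 TPM in vehicle libraries (log2 fold change 0.37, SE 0.13, limma adjusted p = 0.0461), or 0.64 with a pseudocount of 0.1. The call passed in none of the fits with a library left out, at adjusted p-values of up to 0.122, nor after the GC correction (0.135) or quantile normalization (0.109). Slc16a9, linked to carnitine export, averaged 1.38 ± 0.359 TPM in CORT and 0.793 ± 0.146 TPM in vehicle libraries and did not pass (adjusted p = 0.0557), although it did without a filter on low values (0.0496) and with plain eBayes, without the trend and robust options (0.0342).

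Slc16a8 encodes MCT3, a lactate transporter of the retinal pigment epithelium and choroid plexus, and was too low to be tested. It had 0.46, 0.71 and 1.79 TPM in the CORT libraries, against 0.57, 0.15 and 0.4 TPM in the vehicle libraries. CORT replicate 3 alone stood above the others, and Folr1, a folate receptor of the choroid plexus, had 22.52 TPM in that library against at most 3.73 TPM in any other. The summed level of the 2 choroid plexus markers in the table, neither at 0 in any library, was 3.33 to 24.9 TPM in CORT libraries and 1.76 to 3.97 TPM in vehicle libraries. Their part in the level of Slc16a8 was not tested.

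Sodium-calcium exchangers extrude calcium from the cytosol or from mitochondria in exchange for sodium. Slc8b1, the mitochondrial sodium-calcium exchanger NCLX, showed the largest fall among the solute carriers that passed the test. It had 2.38, 1.49 and 2.14 TPM in CORT libraries, against 4.04, 3.55 and 4.11 TPM in vehicle libraries. Its mean TPM in CORT was 0.514 times that in vehicle mice, and the log2 fold change was -0.72 (SE 0.15, limma adjusted p = 0.0067), a call that held without any single library and after the GC correction. The exchangers of the plasma membrane differed less. Slc24a4, a potassium-dependent exchanger, was higher, with 20.74, 18.91 and 20.58 TPM in CORT libraries, against 14.86, 15.74 and 18.72 TPM in vehicle libraries (log2 fold change 0.28, SE 0.10, adjusted p = 0.0464). It passed only without vehicle replicate 3 among the fits with a library left out, with an adjusted p of up to 0.126 in the others, and neither with quantile normalization (0.0579) nor with plain eBayes (0.0507). Slc24a2, its neuronal relative, averaged 110 ± 3.75 TPM in CORT and 95.9 ± 11.6 TPM in vehicle libraries and did not pass (adjusted p = 0.066, and 0.0358 with quantile normalization). Slc8a1 and Slc8a2, the exchangers NCX1 and NCX2, had log2 fold changes of 0.20 and -0.09 that did not pass either, and both turned after the GC correction, to -0.02 and 0.03. Slc24a5, the exchanger of pigment organelles, was too low to be tested and had 0.49, 0.53 and 3.06 TPM in CORT libraries, against 0.31, 0.63 and 0.2 TPM in vehicle libraries. As for Slc16a8, only CORT replicate 3 was high. In the GENCODE M21 annotation 39.5% of the exon bases of Slc24a5 lie over exons of Myef2 on the opposite strand, so its value is uncertain where reads were counted without strand.

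Carriers of chloride, bicarbonate and sulfate showed no call among the 4 tested, whereas 50.6% of all genes tested were called. Slc12a5 encodes KCC2, the potassium-chloride cotransporter that keeps neuronal chloride low and so sets the inhibitory action of GABA. It had 233.65, 233.71 and 250.15 TPM in CORT libraries, against 265.66, 242.07 and 255.99 TPM in vehicle libraries, which overlapped (log2 fold change -0.09, SE 0.06, limma adjusted p = 0.159, and a log2 fold change of 0.02 after the GC correction). Slc12a2, which encodes the chloride importer NKCC1, had 13.72, 13.7 and 14.4 TPM in CORT libraries, against 11.39, 10.24 and 13.7 TPM in vehicle libraries (log2 fold change 0.23, SE 0.11, adjusted p = 0.0885). The lowest CORT library of Slc12a2 equalled its highest vehicle library. Slc26a2, a sulfate transporter, averaged 2.12 ± 0.114 TPM in CORT and 1.49 ± 0.249 TPM in vehicle libraries without overlap (adjusted p = 0.0619, with 0.0379 without vehicle replicate 3 and 0.0264 with plain eBayes). The anion exchanger Slc4a3 averaged 49.1 ± 1.73 TPM in CORT and 55.98 ± 6.16 TPM in vehicle libraries (adjusted p = 0.0891, and 0.0474 with quantile normalization).

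Of the 12 kinases and ubiquitin ligase parts listed as regulators of cation-chloride cotransport, 6 were in the table, and Sgk1 and Sgk3 were higher while 4 did not pass. Among all genes tested, 25.8% were higher and 24.7% were lower. Sgk3 averaged 16.4 ± 3.37 TPM in CORT and 3.14 ± 0.683 TPM in vehicle libraries, and Sgk1 averaged 192 ± 37.4 TPM in CORT and 83.1 ± 27.5 TPM in vehicle libraries (limma adjusted p = 0.000107 and 0.0205). These are the kinases known to raise the surface level of many transporters.

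Transporters of amino acids and transmitters numbered 6, of which 1 was lower, 1 was higher and 4 did not pass. Among all genes tested, 24.7% were lower and 25.8% were higher. All 4 members of the Slc6 family, sodium- and chloride-coupled uptake carriers, had negative fold changes, but only 1 of them was called. The fold change was positive for 50.4% of all genes tested. Slc6a20a, an importer of proline, had 3.02, 2.83 and 3.69 TPM in CORT libraries, against 8.25, 3.99 and 4.57 TPM in vehicle libraries (log2 fold change -0.61, SE 0.22, limma adjusted p = 0.0442). Vehicle replicate 1 was high in Slc6a20a, whose adjusted p was 0.0957 without that library, and the call passed only without vehicle replicate 2 among the 6 fits with a library left out, with up to 0.106 in the others, and not with plain eBayes (0.0569). Slc6a13, a GABA and taurine carrier known from the meninges, had 1.59, 1.55 and 1.1 TPM in CORT libraries, against 6.36, 2.51 and 1.42 TPM in vehicle libraries. Its groups overlapped and it did not pass (adjusted p = 0.102, with 0.249 without vehicle replicate 1 and 0.0267 without vehicle replicate 3). Col1a1 had 0.74, 0.73 and 1.02 TPM in CORT libraries, against 2.33, 1.26 and 1.22 TPM in vehicle libraries, and did not pass (limma adjusted p = 0.0515). It was 1 of 8 meninges markers, with the other 7 not analysed here. Its part in the differences of Slc6a20a and Slc6a13 was not tested. Slc6a9, the glycine transporter GlyT1, averaged 32.3 ± 3.08 TPM in CORT and 39.6 ± 8.19 TPM in vehicle libraries (adjusted p = 0.115), and 27.8% of its exon bases lie over exons of Ccdc24 on the opposite strand. Slc6a6, the taurine transporter, averaged 30.9 ± 4.59 TPM in CORT and 35.4 ± 2.65 TPM in vehicle libraries (adjusted p = 0.12), and Slc43a2, a carrier of large neutral amino acids, averaged 18.7 ± 2.05 TPM in CORT and 21.1 ± 0.445 TPM in vehicle libraries (adjusted p = 0.129). Slc66a2, placed here by its family number alone, was higher, with 34.68, 35.75 and 31.65 TPM in CORT libraries, against 29.97, 27.73 and 27.13 TPM in vehicle libraries (log2 fold change 0.26, SE 0.08, adjusted p = 0.0286). It passed without CORT replicate 3 or vehicle replicate 1 and not in the other fits with a library left out, at adjusted p-values of up to 0.101, nor after the GC correction (0.0846) or quantile normalization (0.0545).

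Metal transporters load zinc, manganese and iron into cells or remove them. Of 7 tested, 1 was lower, 1 was higher and 5 did not pass. Among all genes tested, 50.6% were called, 25.8% as higher and 24.7% as lower. Slc30a3 encodes ZnT3, which fills glutamate vesicles with zinc and is known for the mossy fibres of the hippocampus. It had 72.58, 61.51 and 57.61 TPM in CORT libraries, against 79.37, 79.43 and 70.1 TPM in vehicle libraries, so that CORT replicate 1 lay above the lowest vehicle library. The log2 fold change of Slc30a3 was -0.26 (SE 0.09, limma adjusted p = 0.0466). It passed without CORT replicate 1 and without vehicle replicate 3 and not without the other libraries, at up to 0.129, and after the GC correction its log2 fold change was -0.11 (adjusted p = 0.405). The call of Slc30a3 was also lost with quantile normalization (0.0549), plain eBayes (0.0723) and no filter on low values (0.051). Slc39a6, a zinc importer, had 34.96, 29.36 and 30.82 TPM in CORT libraries, against 25.54, 26.99 and 27.12 TPM in vehicle libraries (log2 fold change 0.24, SE 0.08, adjusted p = 0.0402). It passed without vehicle replicate 3 alone, with up to 0.133 in the other fits, and neither after the GC correction (0.149) nor with quantile normalization (0.0718). Slc40a1 encodes ferroportin, the iron exporter. It had 1.88, 1.43 and 2.15 TPM in CORT libraries, against 2.3, 2.69 and 2.9 TPM in vehicle libraries, which did not overlap, with a log2 fold change of -0.37 (SE 0.14) and an adjusted p of 0.0557, or 0.0124 after the GC correction. It also passed with quantile normalization (0.0261), median centring (0.0444) and plain eBayes (0.0382). Slc30a10, a manganese exporter, averaged 3.70 ± 0.357 TPM in CORT and 4.59 ± 0.431 TPM in vehicle libraries (adjusted p = 0.0893, with 0.0275 after the GC correction and 0.0392 with quantile normalization). The zinc importers Slc39a3 and Slc39a5 had log2 fold changes of -0.19 and -0.30, and Slc39a14, which also carries manganese, had 0.11. None of these 3 passed, although Slc39a3 did with median centring (0.0485) and Slc39a5 with quantile normalization (0.0394).

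Both sodium-phosphate cotransporters of the Slc20 family, which also serve as retrovirus receptors, were lower, as were 24.7% of all genes tested. Slc20a1 had 47.02, 39.44 and 44.17 TPM in CORT libraries, against 61.02, 54.18 and 54.97 TPM in vehicle libraries. The highest CORT library lay below the lowest vehicle library, and the log2 fold change was -0.38 (SE 0.08, limma adjusted p = 0.0100), a call that held without any single library and after the GC correction. Slc20a2, mutated in a familial calcification of the human brain, had 25.21, 26.31 and 26.07 TPM in CORT libraries, against 29.31, 28.93 and 31.3 TPM in vehicle libraries (log2 fold change -0.20, SE 0.07, adjusted p = 0.0467). Without any 1 of the 6 libraries Slc20a2 did not pass, with adjusted p-values of up to 0.123.

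A pair of genes that carry the family name are not transporters. Slc9a3r1 and Slc9a3r2 encode NHERF1 and NHERF2, scaffolds that hold transporters and receptors at the membrane. Slc9a3r1 had 48.43, 53.05 and 54.39 TPM in CORT libraries, against 65.05, 59.64 and 68.26 TPM in vehicle libraries (log2 fold change -0.30, SE 0.08, limma adjusted p = 0.0155). Slc9a3r2 had 37.24, 39.27 and 35.32 TPM in CORT libraries, against 46.43, 42.6 and 45.26 TPM in vehicle libraries (log2 fold change -0.26, SE 0.07, adjusted p = 0.0218). Neither gene's groups overlapped, nor did those of 69.8% of all genes tested. The call of Slc9a3r1 held without any single library, and that of Slc9a3r2 was lost without CORT replicates 1 and 3 and without vehicle replicate 1 (0.0524, 0.0712 and 0.0595). The transcripts of both are rich in GC, at 58.5% and 61.6%, and neither passed after the GC correction (adjusted p = 0.0566 and 0.317).

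Carriers of organic anions and peptides were low in these libraries. Slc22a8 encodes OAT3, an organic anion transporter of brain endothelium and choroid plexus, and was lower in CORT. It had 3.11, 3.37 and 4.52 TPM in CORT libraries, against 6.46, 5.14 and 4.56 TPM in vehicle libraries, so that CORT replicate 3 and vehicle replicate 3 were nearly equal. The log2 fold change of Slc22a8 was -0.45 (SE 0.16, limma adjusted p = 0.0398), and it passed without CORT replicate 3 or vehicle replicate 3 and not without the others, at up to 0.121. Of 10 endothelium markers, 6 were in the table, none at 0 in any library, and 4 were lower, with Pecam1 and Flt1 not passing. Over all genes tested 24.7% were lower. The summed level of these markers was 46.5 to 48.8 TPM in CORT libraries and 84.5 to 92.3 TPM in vehicle libraries. Cldn5 differed most, with means of 17.7 TPM in CORT and 48.7 TPM in vehicle libraries, a ratio of 0.363. The other markers had ratios of 0.562 to 0.839. The part of this level in the differences of Slc22a8 and Slc16a1 was not tested. Slco1a4, an organic anion transporter of the same vessels, was lower as well (log2 fold change -0.30, adjusted p = 0.0439), whereas the endothelial lipid carrier Mfsd2a was higher, with 55.32, 57.23 and 59.08 TPM in CORT libraries, against 38.7, 35.97 and 41.34 TPM in vehicle libraries (log2 fold change 0.55, SE 0.07, adjusted p = 0.000947). Slc15a3, a lysosomal carrier of peptides and histidine, had 1.65, 0.51 and 0.73 TPM in CORT libraries, against 1.41, 1.3 and 1.35 TPM in vehicle libraries and did not pass (adjusted p = 0.189). In its case 28.1% of the exon bases lie over exons of Tmem132a on the opposite strand. Slc47a1, an exporter of organic cations that was too low to be tested, had 0.22, 0.27 and 0.64 TPM in CORT libraries, against 1.26, 0.85 and 0.38 TPM in vehicle libraries, which overlapped.

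Slc10a6 encodes a sodium-dependent carrier of sulfated steroid hormones. It had 0.13, 0.42 and 0.23 TPM in the CORT libraries and was listed at 0 in all 3 vehicle libraries, so no fold is given. It was the only solute carrier of the table listed at 0 in a whole group, and its level was too low to be tested. Its promoter window is shown because it alone among the solute carrier windows holds the longer of the 2 glucocorticoid response motifs searched. Windows of 300 bases were found in RefSeq for 41 of the 55 genes, 59 windows in all, as some genes have more than 1 start. The motif GNACA, any 3 bases, then TGTNC, which reads alike on both strands, was in 1 of these 59 windows (1.69%) and in 0.475% of all 32851 mouse windows of that length. Its shorter relative, AGAACA or TGTTCT, which can overlap the longer motif, was in 8 of the 59 (13.6%) and in 18.97% of all windows. The Slc10a6 window lies at chr5:103629354-103629653 on the minus strand of GRCm38.p6. In it the capitals mark the longer motif, at bases 88 to 100 of the window, together with the shorter one at bases 87 to 92. The longer motif begins at position -163 from the start. A match is a description of the letters and no evidence of binding.
Slc10a6: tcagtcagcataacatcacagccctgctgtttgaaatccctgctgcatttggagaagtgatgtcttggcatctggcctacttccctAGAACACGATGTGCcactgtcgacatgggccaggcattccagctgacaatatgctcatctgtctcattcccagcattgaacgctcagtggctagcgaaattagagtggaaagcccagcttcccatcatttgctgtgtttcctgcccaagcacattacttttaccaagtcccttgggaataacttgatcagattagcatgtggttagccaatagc

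Other transport genes of the table also held members on both sides. For the counts in this paragraph, the shares over all genes tested were 25.8% higher and 24.7% lower. Of 32 ABC transporters, the table holds 6, with 2 higher, 1 lower and 3 that missed the threshold. The cholesterol exporter Abca1 averaged 6.42 ± 0.490 TPM in CORT and 4.39 ± 0.655 TPM in vehicle libraries (log2 fold change 0.46, limma adjusted p = 0.0183). Abca4, a retinoid transporter, had 1.85, 1.02 and 4.15 TPM in CORT libraries, against 0.35, 0.53 and 0.54 TPM in vehicle libraries (adjusted p = 0.0221) and again had its highest level in CORT replicate 3, whereas Abcb9, a lysosomal peptide transporter, was lower (log2 fold change -0.32, adjusted p = 0.0283). Among 18 genes of the vacuolar proton pump, Atp6v0e alone was in the table and was higher (log2 fold change 0.25, adjusted p = 0.0225). Of 11 aquaporins and Slco carriers 4 were in the table, with Slco4a1 higher (log2 fold change 0.44, adjusted p = 0.0286), Slco1a4 lower, Slco1c1 not passing and Slco5a1 too low to be tested. Of 14 partner proteins 4 were in the table, with Mfsd2a higher, Bsg lower and 2 not passing. Markers of other cells moved as well. Of 10 astrocyte markers 5 were in the table, among them Slc1a2 and Slc1a3, which belong to the 4 solute carriers left out of the genes described here. Of the 5 markers 2 were lower, Sox9 and Aldoc. The summed level was 1492 to 1511 TPM in CORT libraries and 1635 to 1709 TPM in vehicle libraries, with Aldoc alone averaging 899 and 1017 TPM. Of 6 pericyte markers 3 were in the table, with Rgs5 higher and Vtn lower. Of 10 oligodendrocyte markers only Mobp, which was higher with groups that overlapped, and Sox10, which was lower without overlap, were in the table. Of 4 markers of their precursors 2 were in the table, neither past the threshold. None of these markers was at 0 in a library, and their part in the solute carrier differences was not tested. Genes of these lists that are not in the table were not analysed here.

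The median GC content of the transcripts differed between genes called higher and genes called lower, with wide overlap. The median GC content of the longest transcript was 48.99% for the 15 solute carriers that were higher and 53.3% for the 11 that were lower, against 49.3% and 55.3% for all genes called higher and lower. It was 53.45% for the 25 solute carriers that did not pass. The range was 41.2% to 60.9% for those higher and 42.9% to 61.6% for those lower. After a spline of GC content had been removed from each library, 11 solute carriers were higher and 10 were lower, against 18.3% and 21.7% of all genes tested. Of the 15 called higher before the correction 10 still passed, as did 7 of the 11 called lower. The calls that were lost were those of Slc16a10, Slc25a25, Slc25a32, Slc39a6, Slc66a2, Slc27a1, Slc30a3, Slc9a3r1 and Slc9a3r2, while Slc25a33 became higher and Slc25a3, Slc30a10 and Slc40a1 lower. The calls that held both after this correction and without any single library were those of Slc25a13, Slc25a15, Slc25a30, Slc27a3, Slc35f3 and Slc35c2, all higher, and of Slc8b1, Slc16a1 and Slc20a1, all lower. Whether base composition itself had a part in the differences was not tested.

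**Figure D4:**
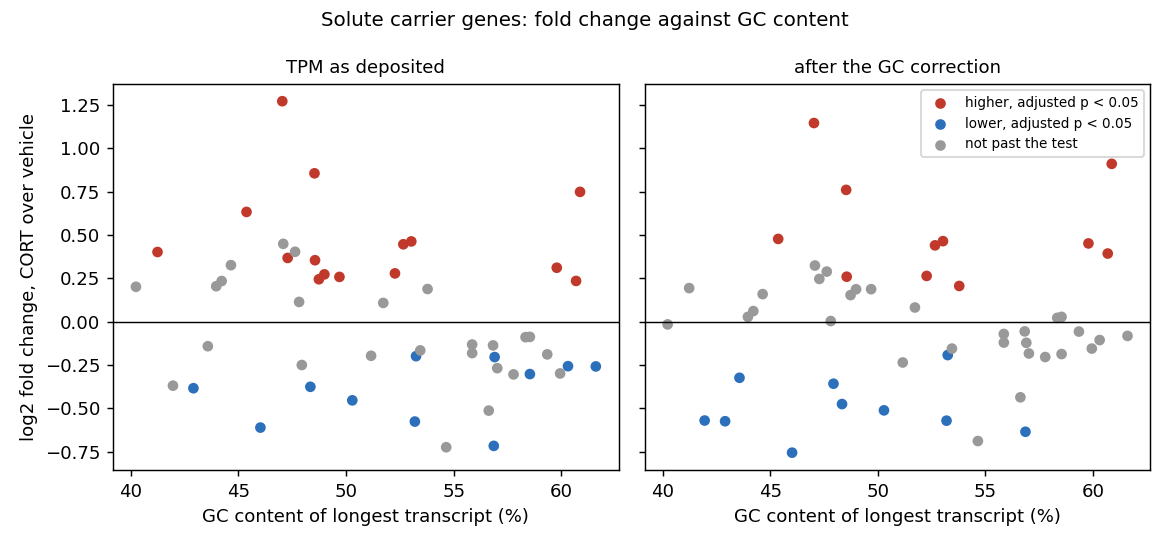
GC content of the longest transcript in percent (x axis) against the log2 fold change in CORT over vehicle (y axis) for the 51 tested solute carrier genes, with TPM as deposited on the left and after the GC correction on the right. Red genes were higher and blue genes lower at an adjusted p under 0.05 and grey genes did not pass, with 15 higher and 11 lower on the left and 11 higher and 10 lower on the right.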

How the data were processed

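Hippocampal RNA of 3 CORT and 3 vehicle mice was sequenced. The authors made TruSeq libraries from 1 μg of total RNA, trimmed the paired-end reads with fastp and deposited a table of TPM values. GRCm39 is the build in the submitters' processing notes, which list RSEM, HISAT2 and StringTie without versions. The table also holds the authors' fold change, its log2 value and a p-value from their comparison with DESeq2, of which only the fact that all 2404 p-values lie under 0.05 was used. Values were transformed to log2(TPM + 1) and fitted by limma 3.58.1 under R 4.3.3 (trended, robust eBayes) over the 2241 genes that reached 1 TPM in 3 or more libraries, with Benjamini-Hochberg adjustment and a threshold of 0.05. The count-based test that the authors used could not be run on TPM.

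Genes were grouped by SLC family number, with exceptions such as Slc9a3r1. All 55 genes could be named. Full values were given for the 12 largest rises and 12 largest falls without overlap past the threshold, of which there were 10, and for the smallest p per class of at least 2 tested genes. In each list of other transport genes the 2 smallest p-values were named, except that the results of 1 list are not reported here. Members, classes and lists were chosen with earlier results of these data known. Other genes named were chosen after their values were seen. The labels call the libraries biological replicates. GC content came from GENCODE M21 (GRCm38) for 99.9% of genes, with a spline of 4 degrees of freedom. Near-identical transcripts were searched with BLAST 2.17.0 at 95% identity over at least 20% of the length. The 3 genes found, Slc15a3, Slc24a5 and Slc6a9, are also those with another gene over at least 20% of their exon bases, on the opposite strand. Other solute carriers had smaller overlaps of this kind, such as Slc25a33 with 14.9% of its exon bases. Promoter windows came from RefSeq (GRCm38.p6). Python 3.11.15, pandas 2.3.3, scipy 1.17.1 and matplotlib 3.10.9 were used for tables and figures. Alternatives were other pseudocounts, filters, scalings, moderation, the GC correction and leaving out each library. The scalings and the GC correction used only genes of the table, which holds 29.2% to 31.5% of the TPM of a library.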

Additional observations from a re-analysis of the deposited data

How the results depend on the processing

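The number of solute carriers called was most sensitive to single libraries. With each library left out in turn, between 6 and 17 were higher (15 with all libraries) and between 5 and 10 were lower (11 with all libraries), with 6 higher without CORT replicate 1, 8 higher without CORT replicate 2, vehicle replicate 1 or vehicle replicate 2, 6 lower without CORT replicate 2, and 5 lower without CORT replicate 3 or vehicle replicate 1. Quantile normalization gave 9 higher and 14 lower, a filter of TPM at least 5 gave 11 higher and 7 lower with 34 genes tested, and the GC correction gave 11 higher and 10 lower. Pseudocounts of 0.1 and 0.5 gave 15 higher and 11 lower as above, median centring 15 and 13, plain eBayes 16 and 9, and no filter on low values 16 and 10. Log2 fold changes kept their sign in every alternative in which the 51 genes were tested except the GC correction, which turned those of Slc12a5 (0.0220), Slc8a1 (-0.0156) and Slc8a2 (0.0276), none of them called. Of the other transport genes 7 were higher and 4 lower. These counts take in partner proteins, the kinases Sgk1 and Sgk3, and the list not reported here. With a library left out 3 to 8 were higher and 2 to 4 lower (3 higher without vehicle replicate 1, 2 lower without CORT replicate 2), and the GC correction gave 7 lower. The cause of these shifts was not tested. Over all genes, between 620 and 1187 were called with a library left out, against 1133. No paired analysis was possible because the labels share only replicate number 3 between the groups and the table's columns are not tied to the labels. Read depth is unknown from TPM, so the precision of low genes such as Slc10a6 cannot be stated.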
